A study of Mus musculus with 58 samples.

Results

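The genes described here are 32 members of the cholesterol pathway, listed by symbol and matched to rows of the count table by Ensembl identifier. Each of the 32 had 1 row among the 56953 genes of the table, and all 32 passed the filter of at least 5 counts in more than 3 libraries, which left 12464 genes to test. They comprise 8 genes of the mevalonate steps, 12 genes of the squalene and sterol steps, 6 regulators and 6 genes of sterol transport. Their levels come from bulk libraries made with Smart-seq3, which reads cDNA along its full length, of adipose stem cells (ASC) sorted from the inguinal white adipose tissue (iWAT) of C57BL6/J mice. Cells negative for CD45 and CD31 and positive for CD34 were split by the surface protein DPP4 into DPP4- cells (ASC1) and DPP4+ cells (ASC2). Castration of males and ovariectomy of females took place at an age of 4 weeks, and intact mice of both sexes served as controls. All mice were terminated at 10 weeks after a fast of 4 h. The 58 libraries fall into 8 groups. Control males gave 7 ASC1 and 8 ASC2 libraries, castrated males 8 and 8, control females 8 and 8, and ovariectomized females 3 and 8. The labels give control libraries the replicate letters A to H and libraries of castrated or ovariectomized mice I to P. Differences that go with these letters cannot be told apart from the treatments.

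Cholesterol is built from acetyl-CoA in a chain of steps that first makes mevalonate and isoprenoid diphosphates, then joins these into squalene, and then closes and trims the sterol ring. The enzymes are switched on together by the transcription factor SREBP2, which is held in the endoplasmic reticulum by SCAP and INSIG proteins when sterols are plentiful and released when they are scarce. The oxysterol receptors LXR alpha and LXR beta act on the other side of the balance and switch on export genes such as Abca1 and Abcg1. Proliferating cells need new membrane and draw on this pathway, and adipose tissue stores much of the free cholesterol of the body.

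The stretches of promoter sequence below are shown because these 4 genes fell in castrated ASC2 and because SREBP proteins and their partner NF-Y are known to read such letters. Windows from 250 bases before to 50 bases after the gene start were available for 26 of the 32 members (RefSeq, build GRCm38.p6). The sterol regulatory element was searched as TCACNCCAC and the NF-Y box as CCAAT, both on either strand, and the letters of the 2 words do not overlap in the stretches printed. Capitals mark the matches, and ATTGG is the NF-Y box read from the other strand. Each stretch is given 5′ to 3′ on the strand of its gene and lies upstream of the start.
Hmgcs1, chr13:119690169-119690262, + strand: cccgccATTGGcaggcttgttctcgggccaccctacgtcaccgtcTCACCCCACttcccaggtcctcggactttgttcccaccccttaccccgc
Pmvk, chr3:89454360-89454449, + strand: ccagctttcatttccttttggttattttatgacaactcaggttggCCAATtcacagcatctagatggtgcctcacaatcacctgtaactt
Msmo1, chr8:64733589-64733678, - strand: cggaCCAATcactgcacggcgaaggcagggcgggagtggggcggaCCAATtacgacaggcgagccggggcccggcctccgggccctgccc
Insig1, chr5:28071162-28071240, + strand: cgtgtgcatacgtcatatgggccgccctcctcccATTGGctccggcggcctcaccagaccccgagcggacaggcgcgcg
The element TCACNCCAC occurred in the window of 1 of the 26 members, Hmgcs1, where it began 137 bases before the start, and in 1.44% of 27025 genes with a window. CCAAT occurred in 20 of the 26 members (76.9%) and in 41.1% of all genes. Acat2 had a window without a match, and Sqle and Fdft1 had no window. These matches are letters in a window and were not tested for binding.

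Levels are given as CPM, the counts of a gene relative to the total of its library after TMM scaling, and they are not corrected for gene length, so a level is compared between groups and not between genes. Fold changes are log2 values with their standard error (SE) from the quasi-likelihood test of edgeR, fitted on all 58 libraries, with p-values adjusted over all 12464 genes by the Benjamini-Hochberg method. A gene is said to rise, fall or be called where its adjusted p was below 0.05. The shares of all genes called come from the fit on all 58 libraries and do not apply to counts from subsets of libraries. The study plans its group size in mice, and its legend counts the samples of a group as biological replicates. The labels themselves do not tie each library to a mouse, and the p-values measure the spread between these libraries. A smaller share of expressing cells and less RNA per cell cannot be told apart in such bulk libraries.

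Total counts were 106566 to 1421547 per library, with a median of 682423.5, and 8 libraries lay under 300000. The ASC2 markers Dpp4, Cd55 and Pi16 summed to between 504 and 5909 CPM in ASC2 libraries and to between 16.6 and 399 CPM in ASC1 libraries. A male library counted as against its sex label at 20 or more Xist reads or fewer than 3 reads of 4 Y-linked genes. A female library counted so at 3 or more Y reads, and a lack of Xist was not judged. By this rule the reads went against the sex label in 27 of the 58 libraries. These were 8 of 8 castrated ASC1 libraries, 4 of 7 control male ASC1, 4 of 8 control male ASC2, 5 of 8 control female ASC1 and 6 of 8 control female ASC2 libraries, and none from castrated ASC2 or from either ovariectomized group. The castrated ASC1 libraries, labelled male, held 13 to 97 Xist reads and 0 to 4 Y reads. Control female ASC1 replicates B, C, D, G and H held 1 to 6 Xist reads and 33 to 55 Y reads. The paper reads low counts of the Y-linked genes Ddx3y and Eif2s3y in its female controls as weak contamination by male mRNA. It gives no such reading for libraries labelled male, and the cause of these reads was not tested here. Groups are named by their labels throughout, and values without these libraries are given for the main comparisons where enough libraries were left. Sult1e1 and C7, a pair of male-biased genes that the study used to judge its control samples, followed the labels in the control groups. Sult1e1 was at 22.7 to 154 CPM in the control male libraries and at 0 to 4.84 CPM in the control female libraries, and C7 at 122 to 1664 and 0 to 20.8 CPM. In ovariectomized ASC1, however, C7 was at 50.3 to 284.5 CPM, with Sult1e1 at 0 CPM. In ovariectomized ASC2, C7 was at 0 to 3.85 CPM. The 3 ovariectomized ASC1 libraries stood apart from the other 55. Their 5 fibroblast markers summed to between 44926 and 46771 CPM, where the other libraries lay between 3380 and 15878 CPM. Their 6 proliferation genes summed to between 12.4 and 21.7 CPM, where the others lay between 225 and 1182 CPM, and 2 of the 3 had fewer than 300000 counts. The paper removed libraries with few detected genes, and 3 were left in this group. They held 11622, 9696 and 9122 detected genes in replicates L, N and P. Replicate L had 1114334 counts, where ovariectomized ASC2 replicate K held 15016 genes at 1118901 and control male ASC2 replicate B held 14080 at 1095487.

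The summed level of the 20 synthesis enzymes gives a first view of the pathway and is a description without a test. In ASC1 it had a median of 1466 CPM in control males, 1495 CPM in castrated males and 1495 CPM in control females. The control male ASC1 libraries lay at 953 to 1126 CPM in replicates B to D. They lay at 1466 to 1900 CPM in replicates E to H, the 4 against their sex label. In ASC2 the median was 1689 CPM in control males and 1150 CPM in castrated males, with ranges of 1283 to 2069 and 537 to 1325 CPM that overlapped at their edges. Control female ASC2 had a median of 1084 CPM and spread from 626 to 2102 CPM. The 2 of these libraries not against their sex label, replicates C and D, were at 1678 and 2102 CPM. The 6 against it were at 626 to 1272 CPM. Ovariectomized ASC2 had a median of 1677 CPM, with replicates I to L between 1916 and 2323 CPM and replicates M to P between 924 and 1439 CPM. The 3 ovariectomized ASC1 libraries were at 613, 395 and 675 CPM. The proliferation genes moved with the enzymes in part of these libraries. The lowest castrated ASC2 library, replicate K, had 226 CPM of them where the other 7 had 716 to 1104, and the lowest control female ASC2 library, replicate E, had 225 CPM. In ovariectomized ASC2 they ran the other way, with 415 to 428 CPM in replicates I to L and 729 to 1062 CPM in M to P. The part of proliferation in the levels below was not tested.

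**Figure D1:**
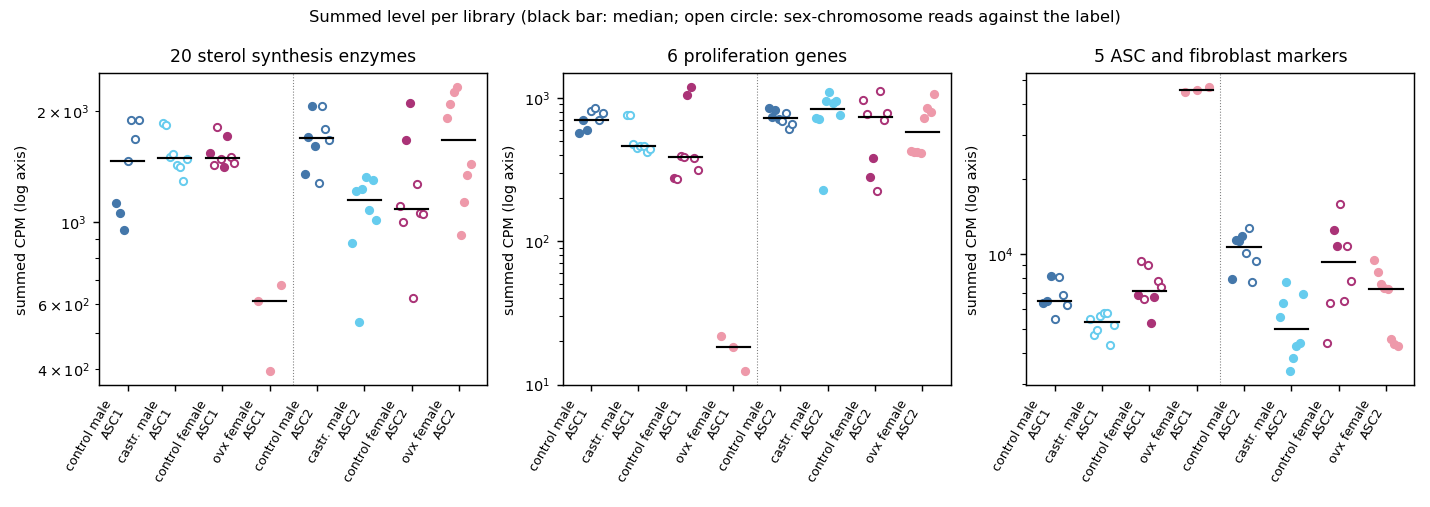
Summed CPM per library (log axis) of the 20 sterol synthesis enzymes, 6 proliferation genes and 5 fibroblast markers in the 8 groups, ASC1 left and ASC2 right of the dotted line, with a bar at the median and open circles for libraries whose sex-chromosome reads went against the label. The 3 ovariectomized ASC1 libraries lie at 395 to 675 CPM of the enzymes and at 44926 CPM or more of the fibroblast markers, and castrated ASC2 lies at 537 to 1325 CPM of the enzymes against 1283 to 2069 CPM in control male ASC2.

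Castration was compared with control within each population to ask how loss of the testes changed these genes. Castrated and control libraries also differ in their replicate letters, which cannot be told apart from castration. In ASC2, 7 of the 32 members fell and none rose, where 6.96% of all genes tested were called, 4.32% lower and 2.65% higher. No member had ranges without overlap, as 0.586% of all genes had. The 7 were spread along the pathway, with Acat2, Hmgcs1 and Pmvk from the mevalonate steps, Fdft1, Sqle and Msmo1 from the squalene and sterol steps, and the feedback gene Insig1. All 8 mevalonate genes and all 12 squalene and sterol genes had a fold change below 0, as had 27 of the 32 members, and the median over the members was -0.53 where that over all genes was 0.00. Of the 6 transport genes and the 5 regulators other than Insig1, none was called.

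Hmgcs1, which condenses acetoacetyl-CoA and acetyl-CoA to HMG-CoA, was at 30.5, 91.4 and 139 CPM (lowest, median and highest) in castrated ASC2 and at 122, 191 and 236 CPM in control male ASC2. In 6 of the 8 castrated libraries it was below every control library, and it fell by 1.06 on the log2 scale (SE 0.26, adjusted p = 0.00755). Acat2, the thiolase that makes acetoacetyl-CoA, had 53.7, 97.3 and 155 CPM in castrated and 101, 167 and 280 CPM in control ASC2. It fell by 0.95 (SE 0.24, adjusted p = 0.00856), with 5 of 8 castrated libraries below the control range. Pmvk, the kinase that adds the second phosphate to mevalonate, had 8.71, 27.1 and 36.8 CPM against 26.8, 44.9 and 74.2 CPM. Its call was close to the threshold (log2 fold change -0.82, SE 0.27, adjusted p = 0.0493).

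Msmo1, which removes methyl groups from the sterol ring, was at 18.9, 52.2 and 72.3 CPM in castrated and at 71.4, 105 and 152 CPM in control ASC2. The 2 ranges overlapped in a single castrated library, and the gene fell by 1.11 (SE 0.24, adjusted p = 0.0021). Sqle, the oxygenase that makes squalene epoxide, had 12.1, 33.4 and 56.2 CPM against 45.4, 69.1 and 134 CPM, and it fell by 1.13 (SE 0.33, adjusted p = 0.0241). Fdft1, squalene synthase, had 31.9, 72.5 and 109 CPM against 98.2, 131 and 151 CPM. In 7 of the 8 castrated libraries Fdft1 was below every control library (log2 fold change -0.78, SE 0.24, adjusted p = 0.0344). Cyp51, the lanosterol demethylase, had 6 of 8 castrated libraries below the control range but missed the threshold (log2 fold change -0.72, SE 0.25, adjusted p = 0.0612).

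Insig1, whose protein acts with SCAP to hold SREBP2 back when sterols are plentiful, had the largest log2 fold change of the 7 called members (-1.42, SE 0.37, adjusted p = 0.01). Its levels were 13.1, 22.1 and 54.8 CPM in castrated and 16.3, 56.6 and 181 CPM in control ASC2. The ranges overlapped, with 2 of 8 castrated libraries below every control library. Without control male replicate D, which held 181 CPM, the value was -1.06 and the call was lost. Srebf2, which encodes SREBP2, was at 18.9, 56.9 and 103 CPM against 35.1, 79.5 and 165 CPM (log2 fold change -0.50, SE 0.23, adjusted p = 0.182). Srebf1, Scap, Nr1h2 and Nr1h3 were not called.

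**Figure D2:**
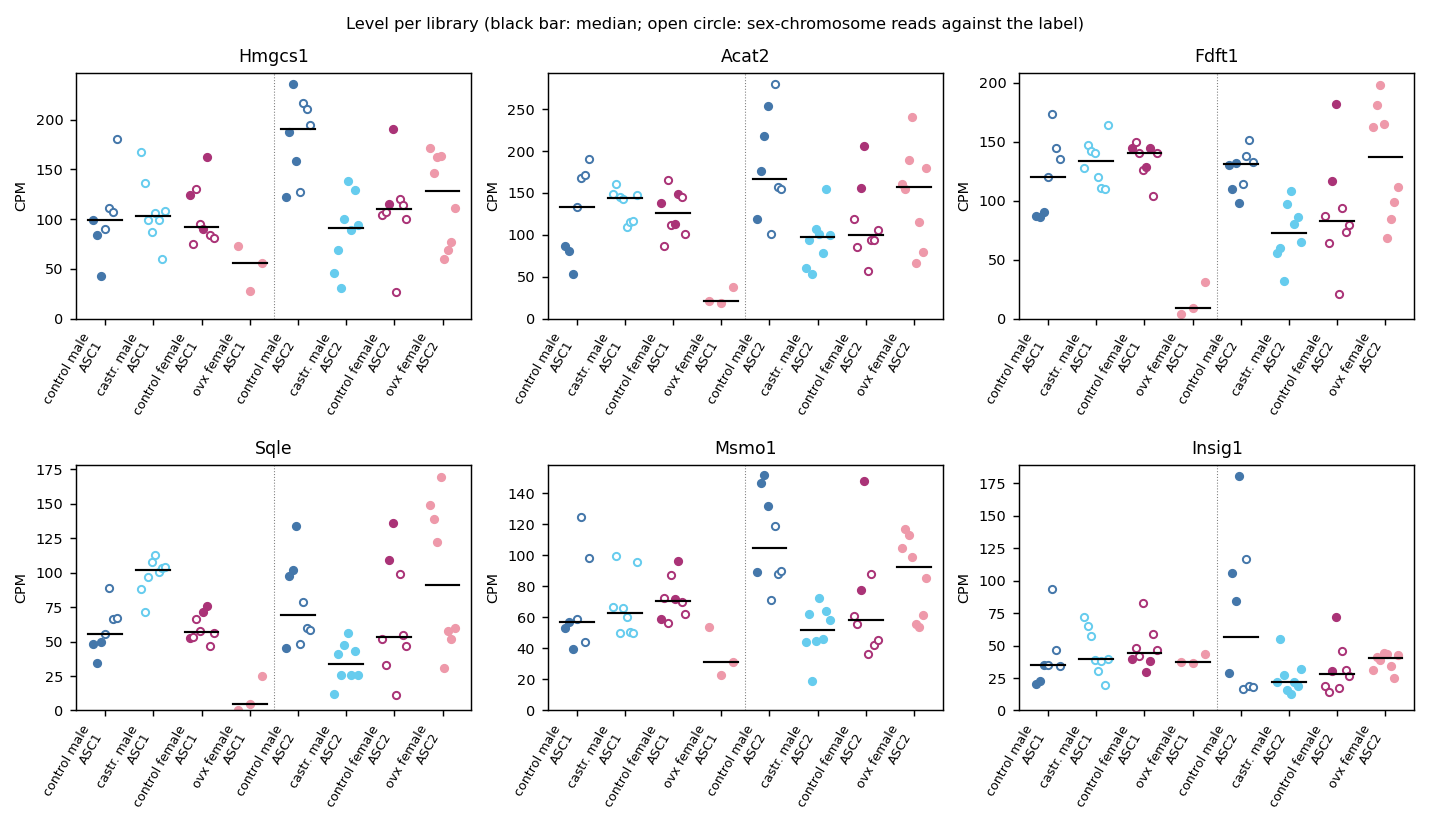
CPM of Hmgcs1, Acat2, Fdft1, Sqle, Msmo1 and Insig1 in every library of the 8 groups, ASC1 left and ASC2 right of the dotted line, with a bar at the median and open circles for libraries whose sex-chromosome reads went against the label. In ASC2 the castrated libraries of Msmo1 reach 72.3 CPM where the control male libraries start at 71.4 CPM, and a single control male library carries Insig1 at 181 CPM.

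Genes of other cell types moved in the same comparison, although the gate was CD45- and CD31-. The 8 macrophage genes summed to between 1391 and 6760 CPM in castrated and between 743 and 2018 CPM in control male ASC2, and 3 of them (Cd68, Csf1r and Lyz2) rose. Of 5 endothelial genes, 3 rose (Pecam1, Cdh5 and Kdr), with sums of 52.7 to 135 CPM against 10.6 to 61.0 CPM. The 5 fibroblast markers summed to between 3380 and 7696 CPM against 7738 to 12759 CPM. The immediate early genes Fosb and Fos fell, and the 6 genes of that list summed to between 242 and 1177 CPM against 798 to 1848 CPM. The part of these lists in the fall of the sterol genes was not tested. Acat2, Hmgcs1 and Msmo1 kept their call in all 23 alternatives, with log2 fold changes of -1.06 to -0.84, -1.17 to -0.90 and -1.33 to -0.95. Sqle kept it in 18, Fdft1 in 10 and Pmvk in 7 of 23. Without the 27 libraries whose sex-chromosome reads went against the label, which left 4 control male ASC2 libraries, 5 members fell. These were Sqle, Acat2, Msmo1, Insig1 and Hmgcs1, and the median over the members was -0.44. Leaving out 1 library at a time gave between 3 and 8 called members. The number was 4 without castrated replicate I or N or without control replicate B or C, and 3 without control replicate D.

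In ASC1 none of the 20 synthesis genes was called between castrated and control males. Of the 32 members, 1 fell, where 2.36% of all genes were called and 1.30% fell, and the median over the members was 0.11. The called gene was Nr1h3, which encodes LXR alpha. Its levels were 12.6, 24.2 and 43.9 CPM in castrated ASC1 and 26.2, 38.2 and 105 CPM in control male ASC1 (log2 fold change -1.13, SE 0.31, adjusted p = 0.0334), and 4 of 8 castrated libraries lay below the control range. No member had ranges without overlap, as 0.682% of all genes had. The macrophage genes Cd68, Lyz2, Adgre1 and Ptprc fell too. Their 8-gene sum was 5483 to 6621 CPM in control replicates B, C and D, 600 to 689 CPM in the other 4 control libraries and 643 to 982 CPM in castrated ASC1, and its part in the value of Nr1h3 was not tested. Control replicates B, C and D also held the lower enzyme sums given above, and the part of this split in the ASC1 values was not tested. Sqle was at 71.5, 102 and 113 CPM against 34.4, 55.8 and 88.6 CPM, with 6 of 8 castrated libraries above the control range (log2 fold change 0.75, SE 0.33, adjusted p = 0.279). All 8 castrated ASC1 libraries were against their sex label, so no value without such libraries can be given.

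The difference between the castration effects in ASC2 and ASC1 was tested directly. It called 1 of the 32 members, Sqle, where 2.41% of all genes were called, 0.883% lower and 1.53% higher. For Sqle the effect was lower in ASC2 (log2 difference -1.88, SE 0.46, adjusted p = 0.0128). The difference was below 0 in all 8 mevalonate genes and in 11 of the 12 squalene and sterol genes, with role medians of -1.01 and -0.96, but Hmgcs1 (-1.16, adjusted p = 0.0892), Acat2 (-1.07, adjusted p = 0.0823) and Msmo1 (-1.08, adjusted p = 0.0854) did not pass. For these genes a difference between the populations was therefore not shown. In the same test all 8 macrophage genes were called higher (median log2 difference 2.83), as were Ddx3y and Eif2s3y, and Dpp4 and Xist were called lower. Their part in the value of Sqle was not tested, and no value without the libraries against their sex label can be given.

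Within the castrated males, ASC2 was lower than ASC1 in 6 members and higher in none, where 9.09% of all genes were called, 4.62% lower and 4.47% higher. Sqle was at 12.1 to 56.2 CPM in castrated ASC2 and at 71.5 to 113 CPM in castrated ASC1, without overlap (log2 fold change -1.47, SE 0.33, adjusted p = 0.00152). Mvd, the decarboxylase that makes isopentenyl diphosphate, was at 13.1 to 46.2 CPM in ASC2 and 48.4 to 75.5 CPM in ASC1 (-0.94, SE 0.30, adjusted p = 0.0337), and Fdft1 was at 31.9 to 109 and 110 to 164 CPM (-0.85, SE 0.24, adjusted p = 0.0142). The ranges of Sqle, Mvd and Fdft1 did not overlap, and 1.64% of all genes had such ranges. Pmvk, Lss and Srebf2 were the other 3 called, at -0.98, -0.91 and -0.75. Macrophage genes were higher in ASC2, with 5 of 8 called (Adgre1, Cd68, Ptprc, Mrc1 and Lyz2) and sums of 1391 to 6760 against 643 to 982 CPM, without overlap. Of 6 immediate early genes, which cell dissociation is known to induce, 4 were higher (Fosb, Fos, Atf3 and Egr1), with sums of 242 to 1177 against 56.6 to 201 CPM. The part of both lists was not tested. The 2 castrated groups also differed in sex-chromosome reads, which cannot be told apart from the difference between the populations.

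Ovariectomy was compared with control within each population to ask how loss of the ovaries changed the same genes. Here too the replicate letters cannot be told apart from the treatment. In ASC2 no member was called by edgeR, where 2.09% of all genes were, 0.650% higher and 1.44% lower. The number at an unadjusted p below 0.05 was 10, and DESeq2 called 1, Mvd. The fold changes leaned upward, with 24 of 32 members above 0 and a median of 0.35. Mvd was at 17.2, 65.97 and 114 CPM in ovariectomized and 23.8, 32.0 and 50.2 CPM in control female ASC2 (log2 fold change 1.02, SE 0.30, adjusted p = 0.0509). Fdps, which makes farnesyl diphosphate, was at 175, 364 and 510 CPM against 30.1, 186 and 383 CPM (0.79, SE 0.27, adjusted p = 0.11). Cyp51 was at 60.7, 117 and 127 CPM against 19.0, 58.4 and 109 CPM (0.75, SE 0.25, adjusted p = 0.102). The ovariectomized libraries fell into the 2 sets of replicates given above for the enzyme sum, and the control libraries held replicate E at the low end. Leaving out 1 library at a time gave 0 to 4 called members, with 4 without control female replicate D, 3 without control female replicate C, and 1 without ovariectomized replicate M or N. Without the libraries against their sex label, which left 2 control female ASC2 libraries, the median over the members was -0.19 and none was called. Krt8, Krt18, Krt14 and Krt5 rose in the same comparison, and the 5 mammary epithelial genes summed to between 9.88 and 1079 CPM in ovariectomized and 6.37 to 42.8 CPM in control female ASC2. The sum was 475 to 1079 CPM in ovariectomized replicates M to P, where the enzyme sum was lower, and 9.88 to 27.8 CPM in replicates I to L. The immediate early genes Fosb, Fos, Egr1 and Jun fell, with sums of the list of 178 to 1043 against 435 to 3310 CPM. The part of both lists in the sterol values was not tested.

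The effects of castration and ovariectomy in ASC2 were compared by a test of the difference. The castration effect was lower than the ovariectomy effect in 5 of the 32 members, where 0.602% of all genes were called, 0.369% lower and 0.233% higher. These were Cyp51 (log2 difference -1.47, SE 0.35, adjusted p = 0.0246), Msmo1 (-1.44, SE 0.34, adjusted p = 0.0246) and Fdft1 (-1.37, SE 0.34, adjusted p = 0.0302), with Mvd (-1.66, SE 0.42) and Acat2 (-1.32, SE 0.34) nearer to the threshold. In Mvd and Cyp51 neither treatment alone had passed. The call rested on single libraries. Leaving out 1 library at a time gave 0 to 10 called members, and none was left without castrated replicate K, without control female replicate B, E or H, or without ovariectomized replicate I, J or K. The number was 10 without control female replicate D, 1 without control male replicate C or control female replicate G, 2 without castrated replicate I, control male G, control female A or ovariectomized L, and 3 without control male or control female replicate F. Without the libraries against their sex label no member and no other gene was called, and the median over the members was -0.38 where the full set gave -0.88.

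**Figure D3:**
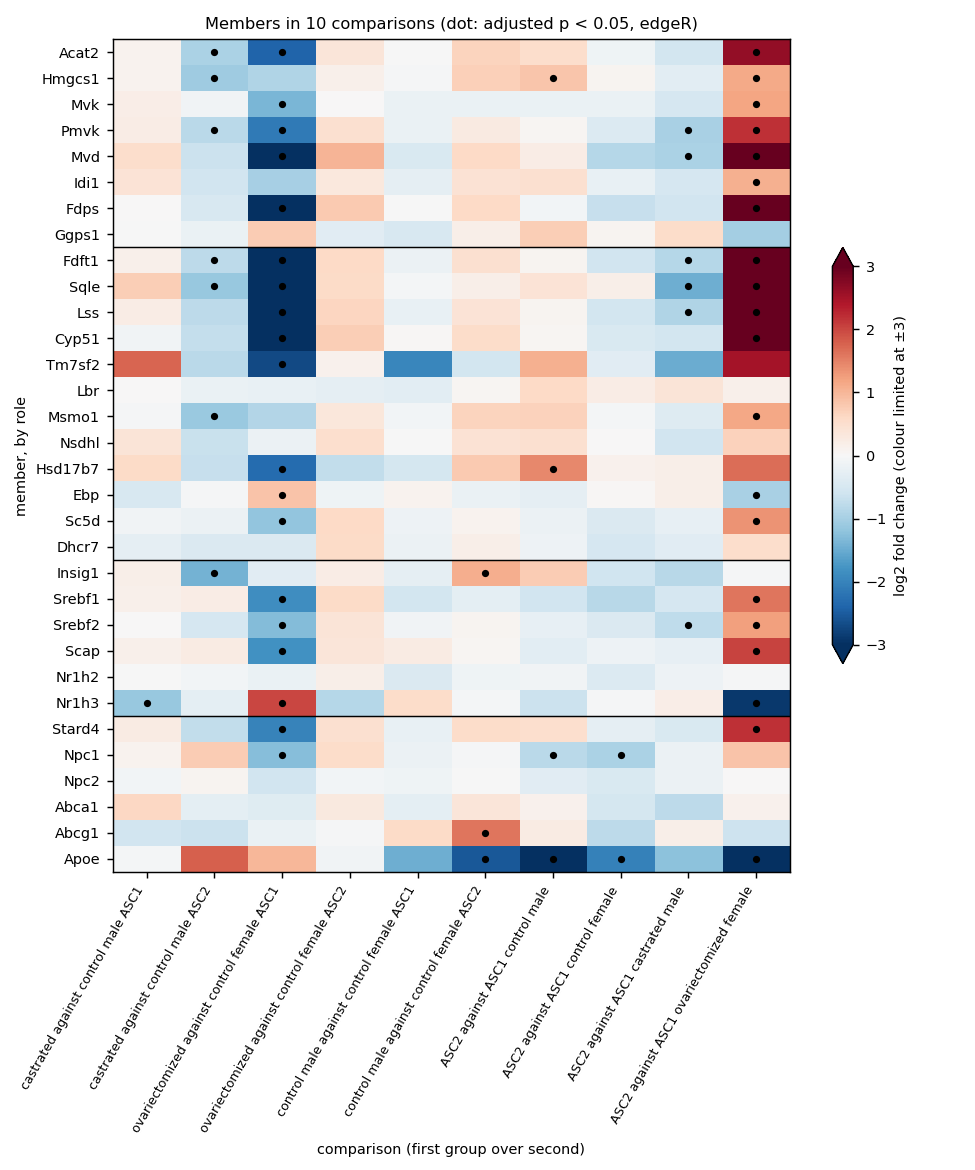
Log2 fold change of the 32 members, ordered by role from the mevalonate steps at the top to transport at the bottom, in 10 comparisons, with blue for lower and red for higher in the first group named, colours limited at ±3, and dots at an adjusted p below 0.05 (edgeR). The column of castrated against control male ASC2 is blue in all 20 enzyme rows with 6 dots there and 1 at Insig1, and the 2 columns that use ovariectomized ASC1 hold 19 and 20 dots.

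The comparison of ovariectomized with control female ASC1 called 19 of the 32 members, 17 lower and 2 higher, but 34.8% of all genes were called in it, 22.1% lower and 12.7% higher, and the median over all genes was -0.34. Over the members the median was -1.23. The ranges of 16 members did not overlap, and 20.9% of all genes had such ranges. Lss, which folds squalene epoxide into lanosterol, had no count in any of the 3 ovariectomized libraries and was at 59.1, 71.2 and 89.0 CPM in control female ASC1. With a floor of 3 counts over the group, it was at least 30.6-fold lower than in control females and at least 31.5-fold lower than in ovariectomized ASC2. That bound does not account for the low number of genes detected in these libraries. Cyp51 was at 1.14, 0 and 12.4 CPM in ovariectomized replicates L, N and P against 52.5, 79.7 and 144 CPM (log2 fold change -4.96, SE 0.65, adjusted p = 1.64e-08). Fdft1 was at 3.43, 9.18 and 31.0 CPM against 104, 140 and 150 CPM (-3.79, SE 0.52, adjusted p = 4.15e-08), and Fdps at 48.0, 41.3 and 12.4 CPM against 252, 334 and 483 CPM (-3.16, SE 0.48, adjusted p = 4.58e-07).

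Among the other enzymes Mvd was at 0, 0 and 24.8 CPM against 39.4, 62.8 and 79.8 CPM (-3.96, SE 0.72), and Sqle at 0, 4.59 and 24.8 CPM against 47.0, 57.0 and 76.1 CPM (-3.60, SE 0.77). Acat2 (-2.41), Pmvk (-2.11), Mvk, the mevalonate kinase (-1.37), Tm7sf2, a sterol reductase (-2.71), Hsd17b7, a sterol ketoreductase (-2.30) and Sc5d, a desaturase (-1.18), also fell. Hmgcs1 was at 73.1, 27.5 and 55.7 CPM against 75.0, 92.4 and 162 CPM and was not called, nor were Idi1, Ggps1, Lbr, Msmo1, Nsdhl and Dhcr7. Ebp, the sterol isomerase, rose (0.86, SE 0.22, adjusted p = 0.00159), with 191, 55.1 and 130 CPM against 55.7, 72.9 and 94.1 CPM. Without replicate L, Ebp was at 0.31 and not called.

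Among the regulators, Srebf1 (-1.86, SE 0.47), Srebf2 (-1.30, SE 0.37) and Scap (-1.83, SE 0.48) fell in ovariectomized ASC1. Srebf2 was at 19.4, 64.3 and 68.1 CPM in replicates L, N and P against 85.3, 108 and 125 CPM in control females, and without replicate L its value was -0.75 and the call was lost. Scap was at 10.3, 41.3 and 12.4 CPM against 38.6, 59.8 and 94.2 CPM, and without replicate L its value was -1.26 and was not called. Insig1 was at 37.7, 36.7 and 43.3 CPM against 30.0, 44.2 and 83.1 CPM and was not called. Nr1h3 rose, with 129, 110 and 198 CPM against 6.56, 37.2 and 58.1 CPM (2.00, SE 0.38, adjusted p = 2.87e-05). Stard4, which carries cholesterol between membranes, fell (-1.99, SE 0.55, adjusted p = 0.00323), as did Npc1, which releases cholesterol from lysosomes (-1.27, SE 0.45, adjusted p = 0.0229). Leaving out each of the 3 libraries gave 13 to 19 called members. Without replicate L, Npc1 (-1.60), Tm7sf2 (-2.12), Hsd17b7 (-0.92) and Sc5d (-0.87) also lost their call, and Npc1 (-0.85) and Tm7sf2 (-2.42) lost it without replicate N. Without the libraries against their sex label, which left 3 control female ASC1 libraries, 16 were called. The 8 macrophage genes summed to between 33.1 and 99.1 CPM in the 3 libraries and to between 685 and 3615 CPM in control female ASC1. The 6 immediate early genes summed to between 2681 and 3727 CPM against 150 to 344 CPM, and 5 of them rose (Fosb, Fos, Atf3, Egr1 and Jun). The part of immediate early genes, low proliferation, high fibroblast markers, depth and few detected genes in these calls was not tested.

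The same 3 libraries set the comparison of ASC2 with ASC1 in ovariectomized females. It called 20 members, 17 higher and 3 lower in ASC2, where 35.4% of all genes were called, 22.5% higher and 12.9% lower, and the median over all genes was 0.37. The ranges of 14 members did not overlap, and neither did those of 21.8% of all genes. Lss, Cyp51, Sqle, Mvd, Fdft1 and Fdps were among the 17, and the fitted log2 fold changes other than that of Lss, given above as a bound, were 5.25, 4.34, 4.13, 3.81 and 3.26. Of the mevalonate genes 7 of 8 were higher in ASC2, Ggps1 being the exception. Of these calls, that of Idi1 was kept in 1 of 10 alternatives, that of Mvk in 4 and that of Hmgcs1 in 5. Nr1h3, Apoe and Ebp were lower in ASC2 (-2.89, -3.14 and -0.97). Without ASC1 replicate L the number was 13, and Srebf1, Srebf2, Ebp, Sc5d, Scap, Mvk and Idi1 lost their call. Without replicate N or P it was 18, and Hmgcs1, Idi1 and Msmo1 lost their call each time. This comparison shares its ASC1 libraries with the one before, so that the 2 are not independent.

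The controls were compared between the sexes as labelled. In ASC1 no member was called by edgeR or DESeq2, where 0.289% of all genes were by edgeR, 0.136% higher and 0.152% lower, and 2 members had an unadjusted p below 0.05. In ASC2, 2 members were higher in males and 1 was lower, where 6.50% of all genes were called, 3.63% higher and 2.87% lower. Abcg1, which exports cholesterol to high-density lipoprotein, was at 27.3, 100 and 201 CPM in control male and 17.8, 36.5 and 42.1 CPM in control female ASC2 (log2 fold change 1.61, SE 0.32, adjusted p = 0.000891). Insig1 was higher in males (1.1, SE 0.36, adjusted p = 0.0485), with 14.0, 28.5 and 71.9 CPM in control female ASC2, and its call was lost in 14 of 23 alternatives. Apoe, the lipoprotein that carries exported cholesterol, was lower in males (-2.54, SE 0.69, adjusted p = 0.0155). Without the libraries against their sex label, Apoe was the single call (-3.20), Abcg1 missed the threshold at 1.73, and the median over the members turned from 0.23 to -0.18. Leaving out control female replicate D gave 6 called members, and leaving out control female replicate C gave 1, Abcg1, with Apoe at -2.05.

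Apoe spread widely between libraries. Its levels were 6.10, 8.88 and 213 CPM in control male ASC1 and 0, 5.97 and 11.9 CPM in control male ASC2. In control females they were 72.1, 127 and 354 CPM in ASC1 and 9.17, 19.7 and 117 CPM in ASC2. Castrated males had 10.2, 40.3 and 160 CPM in ASC1 and 3.23, 9.80 and 70.1 CPM in ASC2, and ovariectomized ASC2 had 0, 38.1 and 66.02 CPM. The 3 ovariectomized ASC1 libraries were at 307, 367 and 297 CPM. Apoe was lower in ASC2 than in ASC1 in control males (-3.11, SE 0.69, adjusted p = 0.00126) and in control females (-2.04, SE 0.56, adjusted p = 0.0144). Without the libraries against their sex label the values were -4.13 in males, still called, and -0.35 in females, where the call was lost. The 8 macrophage genes all had a fold change below 0 in the same comparisons in both sexes, and Csf1r, C1qa, C1qb and Lyz2 were called in males and C1qb in females. The macrophage sum had a range of 743 to 2018 CPM in control male ASC2 against 600 to 6621 CPM in ASC1, and of 886 to 1846 against 685 to 3615 CPM in control females. Their part in the Apoe values was not tested.

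In the control groups the comparison of ASC2 with ASC1 called few members. In males 4 were called, where 12.2% of all genes were, 6.88% higher and 5.30% lower. Hsd17b7 (1.44, SE 0.34, adjusted p = 0.00287) and Hmgcs1 (0.84, SE 0.27, adjusted p = 0.0322) were higher in ASC2, and Apoe and Npc1 were lower. No member had ranges without overlap, as 2.28% of all genes had. Hsd17b7 was at 17.3, 34.5 and 71.4 CPM in ASC2 and 7.11, 15.6 and 24.4 CPM in ASC1. In females 2 were called, where 6.11% of all genes were, 3.54% higher and 2.58% lower, and these were Apoe and Npc1, both lower in ASC2. Npc1 was at 12.7, 26.2 and 38.0 CPM in ASC2 and 21.4, 47.9 and 131 CPM in ASC1 of control females (-0.96, SE 0.28, adjusted p = 0.0229), and at 14.8, 23.2 and 35.3 against 26.7, 36.8 and 60.3 CPM in control males (-0.81, SE 0.28, adjusted p = 0.0431). Npc1 was thus lower in ASC2 in both control sexes with ranges that overlapped. Without the libraries against their sex label it was at -0.88 in males and -0.56 in females, and neither was called. In males that subset called 6 members, 5 higher (Acat2, Stard4, Hsd17b7, Msmo1 and Insig1) and Apoe lower.

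**Figure D4:**
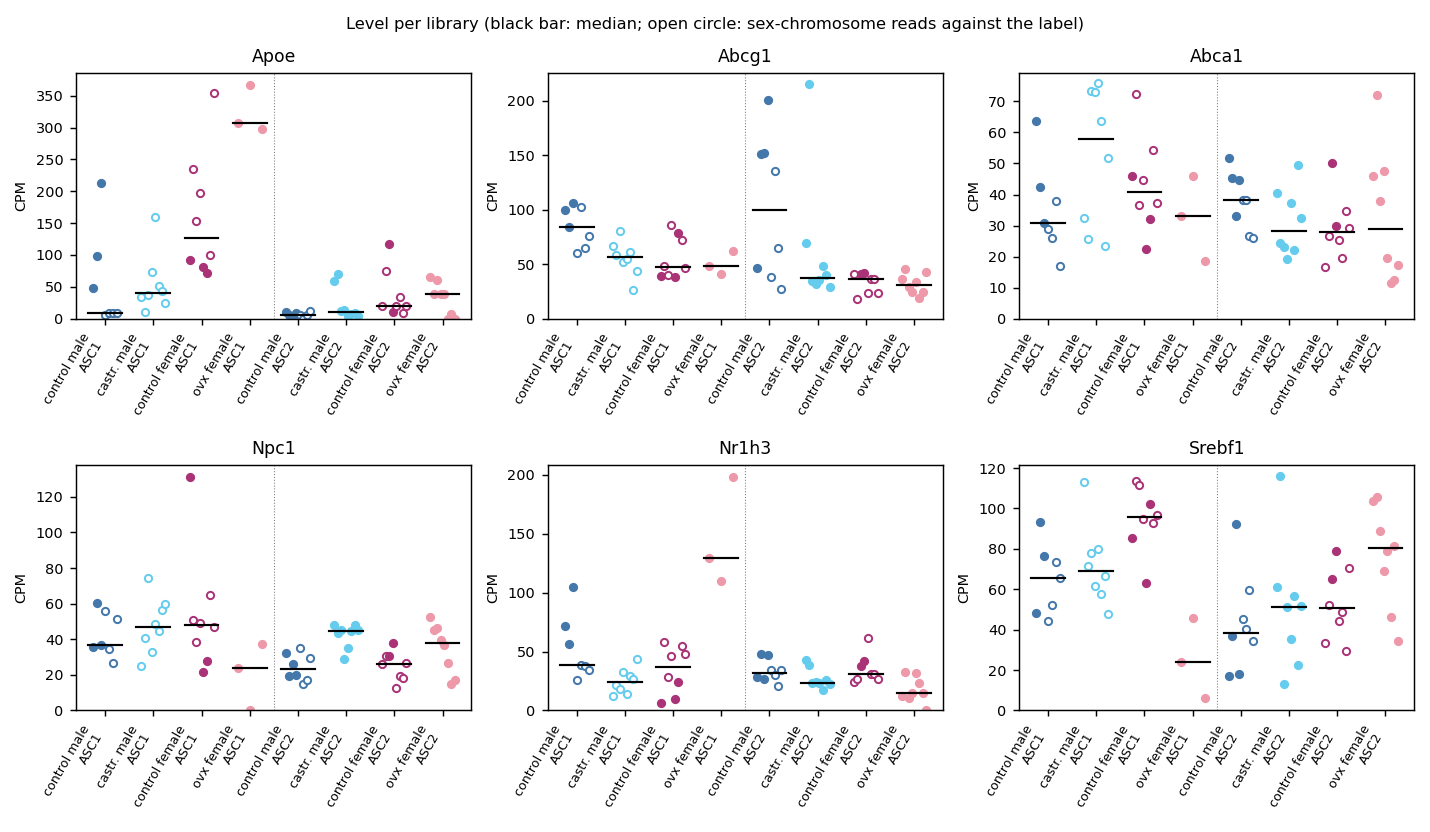
CPM of Apoe, Abcg1, Abca1, Npc1, Nr1h3 and Srebf1 in every library of the 8 groups, ASC1 left and ASC2 right of the dotted line, with a bar at the median and open circles for libraries whose sex-chromosome reads went against the label. The 3 ovariectomized ASC1 libraries lie at 110 to 198 CPM of Nr1h3, above every control female ASC1 library, and at 297 to 367 CPM of Apoe, where control female ASC1 reaches 354 CPM, and control male ASC2 holds Abcg1 from 27.3 to 201 CPM.

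Of the 32 members, 25 were called in at least 1 of the 12 comparisons, as 52.2% of all genes were, and 7 in none. The 7 were Ggps1, which makes geranylgeranyl diphosphate for protein prenylation, the sterol reductases Lbr and Dhcr7, the dehydrogenase Nsdhl, Nr1h2, which encodes LXR beta, the lysosomal carrier Npc2 and the exporter Abca1. Npc2 had group medians of 1556 to 2876 CPM. Abca1 was at 23.3, 57.8 and 75.9 CPM in castrated and 17.1, 30.9 and 63.7 CPM in control male ASC1 (log2 fold change 0.63, SE 0.29, adjusted p = 0.316), and in ASC2 its group medians lay between 28.0 and 38.2 CPM. Nr1h2 had group medians between 78.7 and 125 CPM.

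Neighbouring lipid genes were taken from 2 further lists. Of 12 genes of fatty acid synthesis, which SREBP proteins also control, 1 fell in castrated ASC2. This was Acly, which makes cytosolic acetyl-CoA, at 203, 236 and 279 CPM against 288, 378 and 457 CPM in control male ASC2, without overlap (log2 fold change -0.64, SE 0.13, adjusted p = 0.000951), and it stayed called at -0.68 without the libraries against their sex label. Its castration effect in ASC2 was lower than that in ASC1 by a tested log2 difference of -0.70 (SE 0.19, adjusted p = 0.027). Gpam, the first acyltransferase of glycerolipid synthesis, rose in castrated ASC1 (2.10, SE 0.45, adjusted p = 0.00348). In ovariectomized ASC1, where 22.1% of all genes fell and the median over all genes was -0.34, 8 of the 12 fell, among them Fasn, fatty acid synthase (-1.34), and Scd2, a desaturase (-2.92), and none rose. No gene of this list was called in ovariectomized ASC2 by edgeR, and 11 of the 12 were above 0. In castrated males ASC2 was lower than ASC1 in 4 of the 12, namely Fads1, Fads2, Gpam and Scd2. Of 18 further genes of sterol uptake, storage and oxysterol metabolism, 17 were tested. None was called in castrated ASC2, and 1, Cyp7b1, which breaks down oxysterols, rose in castrated ASC1, from 0, 5.97 and 7.11 CPM to 6.38, 91.9 and 108 CPM (3.88, SE 0.92, adjusted p = 0.00895). Scarb1, the receptor for high-density lipoprotein, rose in ovariectomized ASC2 (1.13, SE 0.31, adjusted p = 0.0338), but was at 0.52 and not called without the libraries against their sex label. The values of Gpam and Cyp7b1 in castrated ASC1 rest on libraries that were all against their sex label. In ovariectomized ASC1, Vldlr, Cyp27a1 and Hsd3b7 rose and Lrp1, Ch25h and Tmem97 fell.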

How the data were processed

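RNA of sorted ASC1 and ASC2 was measured in 58 Smart-seq3 libraries. The authors trimmed reads with NGmerge, used STAR 2.7.10a for quality control, quantified reads with and without molecular identifiers together by Salmon 1.9.0 on Gencode transcripts of GRCm39, removed libraries with few detected genes, and deposited the Salmon estimated counts, not normalized, with 1 row for each gene. Values that were not whole made up 15.0% of those above 0, and all were rounded. Groups come from the sample labels. Genes needed at least 5 counts in more than 3 libraries, and 12371 of the 12464 tested took a symbol, by identifier, from Gencode annotation of GRCm38. Tests used R 4.3.3 and edgeR 4.0.16 (TMM, estimateDisp, glmQLFit, glmQLFTest) with 8 group means, a Benjamini-Hochberg adjusted p below 0.05 and a biological coefficient of variation of 35.6%, and were tested on simulated data. DESeq2 1.42.0, other scalings, filters and subsets of libraries were alternatives, and leaving out single ASC2 libraries or the 3 ovariectomized ASC1 libraries was added after the data had been seen. Libraries of one group were checked for copies, and the lowest chi-square per gene was 1.53. Floors cover counting error only, and the standard errors include the spread between libraries. Genes named with their values are the members called in at least 1 comparison, and Srebf2, Insig1, Abca1 and Apoe. Other members are given by ranges, by counts or as single outlying values, and Sult1e1, C7 and genes of the other lists were named after their values were seen. The members and lists were chosen with earlier results of these data known.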

Additional observations from a re-analysis of the deposited data

Results flagged for a closer look

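In 22 of 224 combinations of a member and a group of 7 or 8 libraries, 1 library lay far from the others of its group by Dixon's criterion, where chance gives about 1 in 20. Castrated ASC2 replicate K was the lowest library of its group in 6 members, with 55.1 CPM of Fdps, 18.9 CPM each of Cyp51, Msmo1 and Srebf2, 5.80 CPM of Nsdhl and 7.26 CPM of Dhcr7. Control female ASC2 replicate E was the lowest in 4, with 26.9 CPM of Hmgcs1, 3.17 CPM of Idi1, 30.1 CPM of Fdps and 1.58 CPM of Stard4. Both libraries also had the lowest proliferation sums of their groups, 226 and 225 CPM. Ovariectomized ASC2 replicate P, the library with the fewest counts of all, 106566, was the lowest for Mvk at 8.57 CPM and held no count of Ggps1 or Nr1h3, both at 0 CPM. Castrated ASC2 replicate J was the highest for Nr1h2 at 182 CPM and Abcg1 at 215 CPM, and it was the library with the second highest macrophage sum of its group, 6146 CPM. Of Tm7sf2 in castrated ASC2 replicate P, Lbr in castrated ASC1 replicate P and Apoe in control male ASC2 replicate F, 0 CPM was found. The remaining low values were Fdft1 at 103.7 CPM in control female ASC1 replicate G, Nsdhl at 24.9 CPM in castrated ASC1 replicate K, Dhcr7 at 26.1 CPM in control female ASC1 replicate F and Npc2 at 689 CPM in control male ASC2 replicate D.

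In 6 cases the effect of a treatment differed between groups by a test of the difference itself (edgeR). The castration effect on Sqle in ASC2 less that in ASC1 was -1.88 on the log2 scale. The castration effect less the ovariectomy effect in ASC2 was -1.32 for Acat2, -1.66 for Mvd, -1.37 for Fdft1, -1.47 for Cyp51 and -1.44 for Msmo1. The calls of castration less ovariectomy rested on single libraries, with 0 to 10 called members when 1 library was left out. None was called without the libraries against their sex label. The value of Sqle uses castrated ASC1 libraries, which were all against their sex label.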

How the results depend on the processing

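For the called members, 898 values under alternatives kept their direction, of which 708 stayed past the threshold and 190 did not, and 120 of 169 alternative counts of called members were within 1.5 times the original. Fitting only the groups compared gave 3 members instead of 1 for castration in ASC1 (Sqle and Ebp added), 2 instead of 1 for the difference of the castration effects, 1 instead of 5 for castration less ovariectomy, and 4 instead of 2 for ASC2 against ASC1 in control females. DESeq2 gave 2, 8 and 4 for the last 3 and 1 instead of 0 for ovariectomy in ASC2, and no filter on counts gave 2 for the difference of the castration effects, 10 for castration less ovariectomy and 2 for ovariectomy in ASC2. Ovariectomy in ASC2 also gave 1 with RLE size factors, without libraries under 300000 counts and without the 3 ovariectomized ASC1 libraries, and castration less ovariectomy gave 3 without the libraries under 300000 counts. Without the 3 ovariectomized ASC1 libraries ASC2 against ASC1 in control females gave 4. Without the libraries against their sex label the count was 1 instead of 0 for control males against females in ASC1 (Nr1h3), 1 instead of 3 in ASC2, 0 instead of 2 for ASC2 against ASC1 in control females and 0 instead of 5 for castration less ovariectomy, and the median log2 fold change turned from 0.35 to -0.19 for ovariectomy in ASC2, from 0.23 to -0.18 for control males against females in ASC2 and from -0.40 to 0.15 for ASC2 against ASC1 in control females. The causes were not tested. Leaving out single libraries gave 3 to 8 for castration in ASC2, 0 to 10 for castration less ovariectomy, 1 to 6 for control males against females in ASC2, 0 to 4 for ovariectomy in ASC2, 13 to 19 for ovariectomy in ASC1 and 13 to 18 for ASC2 against ASC1 in ovariectomized females. Over all genes, castration in ASC2 called 868, and 297 when only the groups compared were fitted. Whether the replicate letters pair the libraries by mouse was not settled, since a weak correlation cannot show that libraries came from different mice. Of 26 same-letter pairs of ASC1 and ASC2, 8 correlated above 0.1 (median 0.033). In 8 of the 26 the same-letter ASC1 library was the closest of its group to the ASC2 library. A block by replicate letter gave 4 instead of 2 members for ASC2 against ASC1 in control females. Depth limits low genes such as Tm7sf2, at a median of 1.14 to 13.6 CPM.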
